A study of Homo sapiens with 18 samples.

Results

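The genes described here were 53 genes of mitotic entry, the spindle checkpoint, the kinetochore and anaphase, taken from a list of symbols by function. All 53 were found by symbol among the 20329 genes of the count tables, each with 1 Ensembl identifier. They were described across 6 groups of HAP1, an adherent human line with a nearly haploid genome that derives from a leukemia. All groups grew in the same medium and shared the HAP1 background. Control cells were unedited (WT in the labels). ΔWAPL cells carried a Blasticidin cassette that disrupted WAPL, the factor that releases cohesin from DNA, and were represented by the clones 3.3 and 1.14. ΔSCC4 cells carried a Puromycin cassette in SCC4, listed as MAU2, the partner of the cohesin loader NIPBL (SCC2). ΔWAPL/ΔSCC4 cells were made by disrupting SCC4 in ΔWAPL cells. Each group had 3 libraries, and the controls came as 2 sets, A and B. Clone 3.3, ΔSCC4 and ΔWAPL/ΔSCC4 were compared with control A, and clone 1.14 with control B. Every genotype other than ΔWAPL was sampled in 1 line, so genotype and line cannot be told apart there.

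In mitosis, CDK1 with cyclins B and A drives entry, and kinetochores assemble on CENPA chromatin at each centromere. The inner kinetochore proteins (CENPC and the CENP-T, CENP-I and CENP-U groups) connect centromere chromatin to the outer kinetochore, where KNL1, the MIS12 complex and the NDC80 complex bind microtubules. Unattached kinetochores recruit BUB1, BUB1B, BUB3, MAD1L1, MAD2L1 and the kinase TTK, which hold back the CDC20-bound anaphase-promoting complex until every chromosome is attached. Separase (ESPL1), restrained by PTTG1, then cleaves cohesin. WAPL removes most cohesin from chromosome arms in prophase, helped by PLK1 and AURKB, while protection by shugoshins keeps cohesin at centromeres. SGO2 belongs to the shugoshin family, as does SGO1, which was counted among the other mitotic genes. Transcripts of many of these genes peak in G2 and mitosis. In RNA from a whole culture, fewer cells in mitosis and less RNA per cell cannot be told apart.

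The 18 libraries held between 10007646 and 20711127 counts on genes. Counts are given as CPM, a share of the library's counts after TMM scaling of library size (the usual CPM unit), for each library in the order of its replicate number. The members took between 0.741% and 0.934% of the counts on genes, and each had between 166 and 22553 counts in every library. WAPL fell over both clones (log2 fold change −1.37, edgeR quasi-likelihood test, adjusted p = 1.01e-06), from 78.1 to 131 CPM in control libraries to 38.0 to 50.2 CPM in ΔWAPL libraries. MAU2 fell from 56.7 to 72.7 CPM in control libraries to 0.509 to 0.975 CPM in ΔSCC4 and 0.848 to 1.04 CPM in ΔWAPL/ΔSCC4 libraries. NIPBL lay between 40.9 and 168.6 CPM and did not pass the threshold in any comparison. All 10 blood markers stayed under 1 CPM in every library, and 3 (SPI1, HBG1 and CD3E) were at 0 throughout. Of 8 fibroblast markers 5 stayed under 1 CPM (LUM and FAP at 0), and of 6 epithelial markers 3 did (KRT5 at 0). The fibroblast sum moved with WAPL loss in both sets, from 24.1 to 28.8 CPM in control A to 54.9 to 62.8 CPM in clone 3.3, and from 42.8 to 46.5 CPM in control B to 68.8 to 78.6 CPM in clone 1.14. It was 38.6 to 53.8 CPM in ΔSCC4 and 41.7 to 45.3 CPM in ΔWAPL/ΔSCC4. The epithelial sum was 108 to 130.5 CPM in ΔWAPL/ΔSCC4 and 41.7 to 81.9 CPM elsewhere, and the part of either sum in the results below was not tested.

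Libraries stood apart in their balance of AT-rich and GC-rich genes before any genotype was compared. Spearman's rho across genes between a library's log2 deviation from the mean of all libraries and the GC content of the exons ran from −0.56 (clone 3.3, replicate 1) to 0.54 (ΔSCC4, replicate 1), and control A alone spanned −0.50 to 0.53. The members are AT-rich, with a median exon GC content of 43.5% against 47.8% over all genes tested, and 13 of them lie under 40%. In control B the median deviation of these 13 was −0.31 in replicate 1, −0.83 in replicate 2 and 0.12 in replicate 3. The rho of these libraries was 0.047, 0.27 and −0.41. In the libraries of highest rho, ΔSCC4 replicate 1 and control A replicate 1, the 13 stood at −0.15 and −0.14. The shortfall in control B was deepest in CENPE, the kinesin that carries chromosomes to the spindle equator, with 45.8, 16 and 131.7 CPM in the 3 control B libraries. KNL1, the scaffold that recruits the BUB proteins, read 80.8, 31.1 and 140.5 CPM there, and SGO2 read 34.1, 18.02 and 66.5 CPM. These examples were chosen after their values were seen. Their annotated exons span 9928 bases in CENPE, 10250 in KNL1 and 6336 in SGO2, against a median of 3821 over the members. The part of exon length was not tested. In control A the same genes read 144 to 169 CPM for CENPE, 93.7 to 126 CPM for KNL1 and 65.9 to 70.4 CPM for SGO2, so their levels in control B replicate 3 lay nearer to control A than to the other control B libraries. The 11 members of 50% GC or more lay between −0.13 and 0.085 in the same control B libraries.

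**Figure D1:**
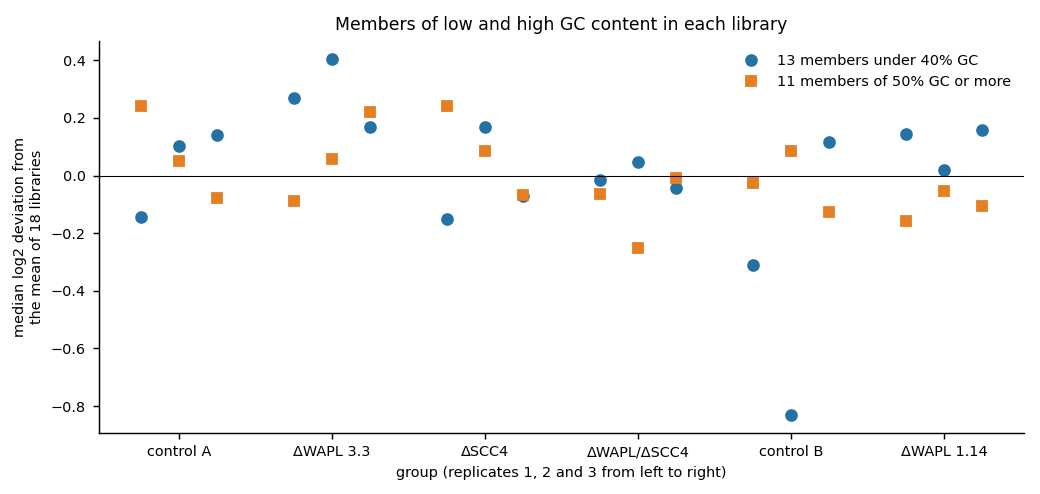
Median log2 deviation from the mean of all 18 libraries, for the 13 members under 40% exon GC (circles) and the 11 members of 50% GC or more (squares), by library within each group. Control B replicate 2 stands at −0.83 for the AT-rich members, while the 3 libraries of clone 1.14 lie between 0.019 and 0.16.

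All 53 members were expressed in control cells. Per kilobase of annotated exon, the median level over the 6 control libraries ranged over 66.0-fold. The highest were CCNB1 (cyclin B1), with 167 CPM per kb and a range of 146 to 195, TOP2A (topoisomerase II alpha, which untangles sister DNA), with 140.0 CPM per kb and a range of 85.2 to 176, and CDC20, with 138 CPM per kb and a range of 123 to 176. Their ranges overlapped, so their order was not separated by the spread of the controls. At the other end stood CENPC, at 2.53 CPM per kb (1.31 to 3.42), MAD1L1, at 3.15 CPM per kb (2.89 to 3.82), and NSL1 of the MIS12 complex, at 4.20 CPM per kb (3.61 to 4.60). CENPC and MAD1L1 overlapped, as did MAD1L1 and NSL1.

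Some subunits of 1 complex stood at different levels per kilobase, while the ranges of others overlapped. Within the NDC80 complex the control medians were 33.8 CPM per kb for NDC80 (22.5 to 41.6), 26.7 for SPC24 (22.9 to 28.8), 19.4 for SPC25 (18.4 to 21.3) and 18.1 for NUF2 (9.84 to 20.8). NDC80 overlapped SPC24 and SPC25 overlapped NUF2, and the first pair lay above the second. Within the chromosomal passenger complex, which corrects faulty attachments, the medians were 67.8 for BIRC5 (58.7 to 84.6), 57.0 for AURKB (47.2 to 64.7), 51.7 for CDCA8 (47.0 to 58.4) and 29.0 for INCENP (21.7 to 33.2). AURKB overlapped both BIRC5 and CDCA8, and INCENP lay below all of them. Among the checkpoint genes BUB1B stood at 53.8 CPM per kb and MAD1L1 at 3.15, with MAD2L1 (37.9), BUB1 (34.9), BUB3 (31.9) and TTK (18.4) between them. BUB1B overlapped MAD2L1, and MAD2L1, BUB1 and BUB3 overlapped one another, while TTK and MAD1L1 lay apart. Exon lengths count every annotated exon, also those that HAP1 cells may not use, so levels of genes with long annotated exons such as NSL1 may be set too low.

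**Figure D2:**
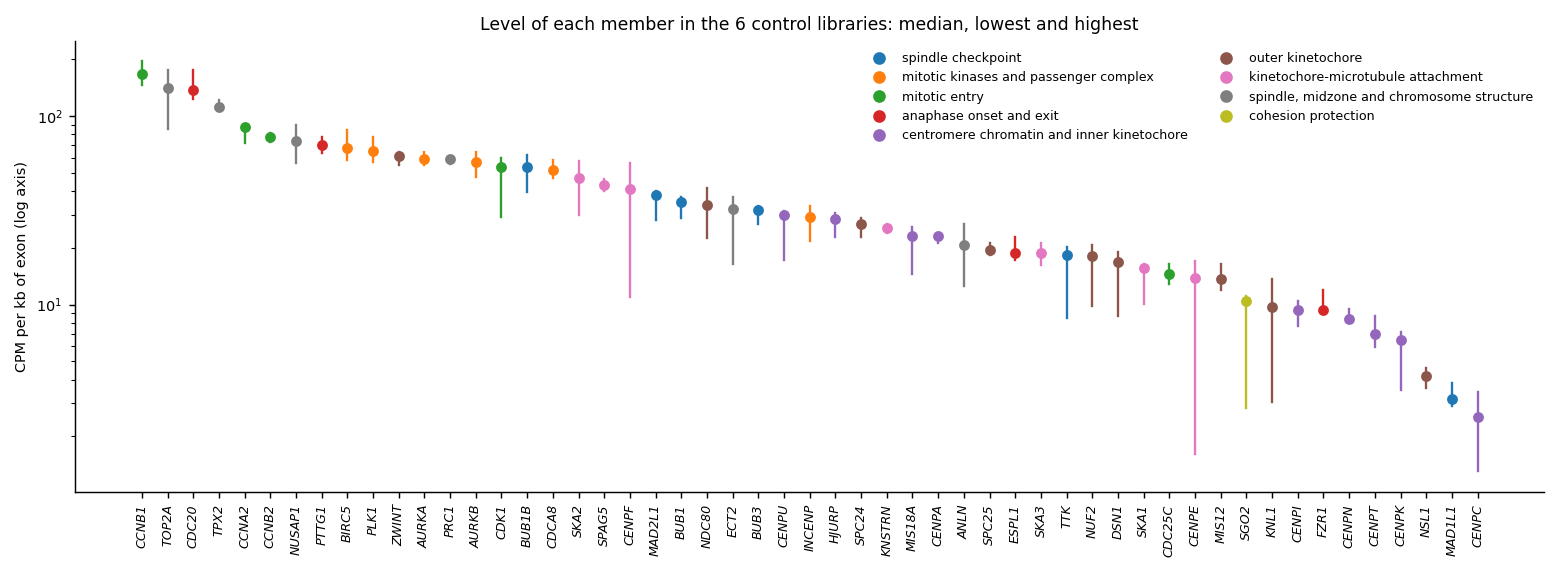
CPM per kilobase of annotated exon (log axis) of the 53 members in the 6 control libraries, ordered by the median (points), with bars from the lowest to the highest library and colours by role. Levels run from 167 for CCNB1 to 2.53 for CENPC, and the longest bars are those of CENPE, CENPF, SGO2 and KNL1.

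Of the 53 members, 10 passed the threshold (adjusted p under 0.05 over all genes tested) in at least 1 of 9 comparisons, and 43 in none. The 10 were ZWINT, CENPU, BUB1, SPC25, AURKB, TTK, CDK1, ECT2, TOP2A and SGO2. Their promoters are shown because late cell cycle genes are known to be controlled there, through the repressor DREAM and the activator B-MYB at the sequence TTTGAA and through NF-Y at CCAAT. RefSeq promoters (GRCh38.p14) were at hand for 46 members, and each was placed in GRCh37 by an exact match. TTK had no entry. For the other 9 the 200 bases before the start site are given 5′ to 3′ on the gene's strand with GRCh37 positions, and capitals mark TTTGAA and CCAAT on either strand (TTCAAA and ATTGG when reversed):
ZWINT (chr10:58121021-58121220, minus strand): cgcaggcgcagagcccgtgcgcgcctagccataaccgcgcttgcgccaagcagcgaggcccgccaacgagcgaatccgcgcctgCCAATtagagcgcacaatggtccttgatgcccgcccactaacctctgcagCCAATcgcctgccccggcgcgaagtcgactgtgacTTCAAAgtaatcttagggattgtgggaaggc
CENPU (chr4:185655251-185655450, minus strand): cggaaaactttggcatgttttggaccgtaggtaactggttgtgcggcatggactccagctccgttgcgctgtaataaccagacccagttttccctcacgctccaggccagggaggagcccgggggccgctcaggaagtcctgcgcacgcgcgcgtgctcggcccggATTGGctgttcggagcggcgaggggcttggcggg
CDK1 (chr10:62537889-62538088, plus strand): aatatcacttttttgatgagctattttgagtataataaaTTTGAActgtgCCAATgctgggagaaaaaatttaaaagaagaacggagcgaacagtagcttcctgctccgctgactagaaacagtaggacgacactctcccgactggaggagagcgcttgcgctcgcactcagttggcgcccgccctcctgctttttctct
ECT2 (chr3:172468316-172468515, plus strand): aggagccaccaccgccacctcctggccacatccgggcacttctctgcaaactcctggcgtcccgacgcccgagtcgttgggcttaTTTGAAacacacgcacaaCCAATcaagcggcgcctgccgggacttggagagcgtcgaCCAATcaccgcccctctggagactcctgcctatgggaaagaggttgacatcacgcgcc
TOP2A (chr17:38574149-38574348, minus strand): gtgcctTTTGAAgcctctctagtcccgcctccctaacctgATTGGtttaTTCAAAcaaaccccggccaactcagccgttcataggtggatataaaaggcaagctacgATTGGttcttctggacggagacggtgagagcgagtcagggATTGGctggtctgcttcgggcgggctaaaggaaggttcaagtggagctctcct
SGO2 (chr2:201390665-201390864, plus strand): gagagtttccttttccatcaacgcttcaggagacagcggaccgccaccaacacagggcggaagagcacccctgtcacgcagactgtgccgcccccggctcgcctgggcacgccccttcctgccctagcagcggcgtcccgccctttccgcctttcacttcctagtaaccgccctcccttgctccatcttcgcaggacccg
BUB1 (chr2:111435641-111435840, minus strand): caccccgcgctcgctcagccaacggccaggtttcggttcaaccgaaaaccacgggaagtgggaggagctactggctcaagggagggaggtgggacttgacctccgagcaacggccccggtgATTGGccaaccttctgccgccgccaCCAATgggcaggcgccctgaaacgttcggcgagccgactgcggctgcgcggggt
SPC25 (chr2:169746941-169747140, minus strand): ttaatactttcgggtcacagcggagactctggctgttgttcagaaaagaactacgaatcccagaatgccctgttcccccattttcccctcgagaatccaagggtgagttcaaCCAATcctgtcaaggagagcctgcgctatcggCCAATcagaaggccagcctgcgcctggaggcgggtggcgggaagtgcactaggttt
AURKB (chr17:8113544-8113743, minus strand): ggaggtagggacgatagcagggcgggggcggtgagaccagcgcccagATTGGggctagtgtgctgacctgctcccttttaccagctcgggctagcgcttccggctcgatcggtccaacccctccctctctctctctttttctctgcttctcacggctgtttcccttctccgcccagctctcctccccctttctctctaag

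Among these 9 stretches TOP2A held 2 TTTGAA and 3 CCAAT matches, ECT2 and ZWINT 1 and 2, and CDK1 1 and 1. BUB1 and SPC25 each held 2 CCAAT matches, CENPU and AURKB 1, and SGO2 neither motif. In these stretches no match of 1 motif overlapped a match of the other. Over the full windows, from 250 bases before to 50 after the start, TTTGAA was present in 27 of 46 member promoters (58.7%) and in 15.4% of the 27305 promoters of the table. CCAAT was present in 30 of 46 (65.2%) and in 35.7% of all. The GC-rich string GGCGG, counted in the same way, was present in 44 of 46 (95.7%) and in 58.6% of all. Member promoters thus differed from the table in more than TTTGAA and CCAAT. The matches describe these letters and window only.

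The effect of WAPL loss was estimated first from both clones together, in a fit that allowed for the control set. ZWINT and CENPU rose, and no member fell. Over all genes tested 17.7% passed the threshold, 8.56% as higher, against 2 of 53 members, all of them higher. The median log2 fold change was 0.051 over the members and 0.005 over all genes tested, and all 53 estimates were smaller than 1.5-fold. The 95% interval lay within 1.5-fold in either direction for 42 members. Because replicates of a group are not stated to be separate cultures, p-values measure only the spread between these libraries.

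ZWINT, the ZW10-interacting protein of the outer kinetochore, moved most. It read 145.9, 147.9 and 144.6 CPM in control A and 249.8, 199 and 177.5 CPM in clone 3.3. In control B it read 141, 152 and 130.4 CPM, and in clone 1.14 it read 220.0, 231 and 209 CPM. Every ΔWAPL library was above every control library of either set. The rise was 0.58 on the log2 scale (SE 0.081, 95% interval 0.40 to 0.75, edgeR adjusted p = 0.000123), or 1.49-fold. In clone 1.14 alone it was 0.63 (SE 0.074, edgeR adjusted p = 0.00116) and in clone 3.3 alone 0.49 (SE 0.15, edgeR adjusted p = 0.0513), just outside the threshold. ZWINT passed the threshold in all 23 alternative fits over both clones, with estimates of 0.52 to 0.63.

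CENPU, a subunit of the inner kinetochore that helps to recruit PLK1, read 103, 108 and 109.7 CPM in control A and 138, 133 and 117 CPM in clone 3.3. In set B it read 83.8, 59.8 and 106 CPM in the controls and 124, 112 and 123 CPM in clone 1.14. Every ΔWAPL library was above every control library here too, by 111.7 against 109.7 CPM at the nearest, and the lowest control was control B replicate 2. The rise was 0.40 (SE 0.11, 95% interval 0.16 to 0.64, edgeR adjusted p = 0.0242) over both clones. It was 0.25 (adjusted p = 0.368) in clone 3.3 and 0.52 (adjusted p = 0.0864) in clone 1.14, so neither clone passed alone in edgeR. CENPU lost the threshold in 6 of 23 alternative fits: without control B replicate 1, without clone 1.14 replicate 1 or 3, with either clone against all 6 controls, and with the replicate block and GC offset together.

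No other member passed over both clones. All 6 genes of the mitotic kinase and passenger group (AURKA, AURKB, BIRC5, INCENP, CDCA8 and PLK1) had estimates below 0, from −0.16 to −0.057, and all 9 outer kinetochore genes had estimates above 0, from 0.017 to 0.58. Both groups were chosen after their values were seen, and the other roles with more than 1 gene were mixed in sign. In clone 3.3 the kinase group had 1 estimate above 0 and 5 below, and the outer kinetochore 7 above and 2 below. The 5 largest estimates past ZWINT that did not pass belonged to KNL1 (0.53), CENPE (0.52), SGO2 (0.46), CENPC (0.43) and ECT2 (0.40), all under 40% GC. Across the 53 members the log2 fold change and the exon GC content had a Spearman's rho of −0.70, against −0.29 across all genes tested, as a description of genes that share libraries. With exon length the rho was 0.29 across the members and 0.07 across all genes tested. All 13 members under 40% GC had estimates above 0 (median 0.38), and 3 of the 11 of 50% GC or more did (median −0.063). ZWINT, at 47.3% GC, stood apart from this gradient. When a smooth GC curve per library was entered as an offset, 3 members passed against 24.4% of all genes, ZWINT and CENPU as higher and the checkpoint gene BUB3 as lower, and the median of the members was −0.001. Leaving out control B replicate 3 raised the count to 10, all higher (TTK, CDK1, CENPC, CENPK, CENPU, KNL1, ZWINT, ANLN, ECT2 and SGO2). That was 18.9% of the members against 19.3% of all genes in either direction. The control B libraries that then remained had AT-rich members at −0.31 and −0.83, and the part of this in the result was not tested.

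**Figure D3:**
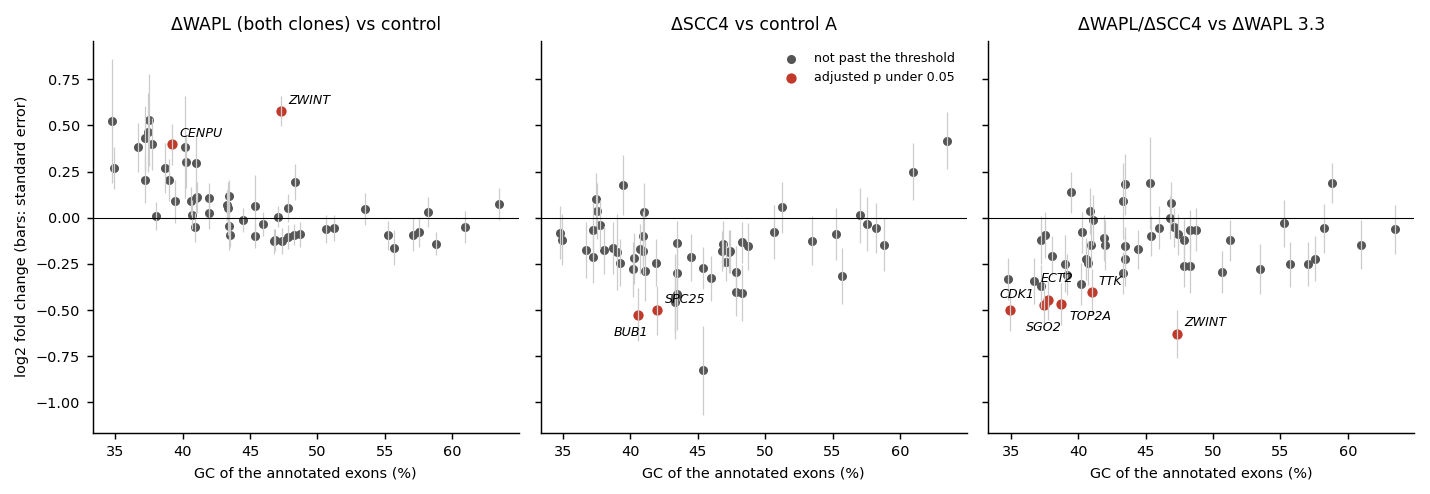
Log2 fold change of the 53 members (points, bars of 1 standard error) against the GC content of their exons in 3 comparisons, with members past the threshold in red. In the ΔWAPL panel the estimates decline with GC (rho −0.70), and ZWINT at 47.3% GC lies off the trend.

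Each clone was then set against its own controls. In clone 3.3 none of the 53 members passed in edgeR, where 8.07% of all genes did, while 3 members had an unadjusted p under 0.05 and DESeq2 called 1, ZWINT. Without control A replicate 1, or without clone 3.3 replicate 3, ZWINT passed in edgeR as well. In clone 1.14 ZWINT rose and AURKB fell, 2 of 53 against 20.1% of all genes. AURKB, the catalytic subunit of the passenger complex, read 127, 145 and 118.5 CPM in control B and 102, 108 and 106.6 CPM in clone 1.14, without overlap. The fall was by 0.30 on the log2 scale (SE 0.084, 95% interval −0.50 to −0.11, edgeR adjusted p = 0.0441). In set A AURKB overlapped, at 143, 129 and 106 CPM in the controls and 111, 119 and 141 CPM in clone 3.3, and the estimate there was −0.046. AURKB lost the threshold in 4 of the 6 fits that left out 1 library: without control B replicate 1 and without each clone 1.14 library. With the GC offset 12 members passed in clone 1.14, 22.6% against 28.1% of all genes, 3 of them higher (CENPU, DSN1 and ZWINT) and 9 lower, among them PLK1, AURKA, AURKB and CCNB1. Without control B replicate 3 there were 25, 47.2% against 37.9% of all genes, 18 of them higher and 7 lower.

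Whether the clones responded differently was tested by an interaction term. No member passed in edgeR, where 2.65% of all genes did; 1 member (BUB1, 0.30) had an unadjusted p under 0.05, and DESeq2 called none. For ZWINT the difference, clone 3.3 minus clone 1.14, was −0.12 with a 95% interval from −0.48 to 0.23. For CENPE it was −0.83 with an interval from −2.24 to 0.58. Without control B replicate 3 the CENPE difference was −1.90 and passed (edgeR adjusted p = 0.0152), and in the other alternatives its adjusted p was between 0.318 and 0.963. The control sets themselves were compared as well. No member differed between control B and control A in edgeR, where 0.64% of all genes did, 7 members had an unadjusted p under 0.05, and DESeq2 called none. The lowest estimates were −1.32 for CENPE (edgeR adjusted p = 0.432) and −0.81 for SGO2 (edgeR adjusted p = 0.448). Without control B replicate 3 both passed.

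**Figure D4:**
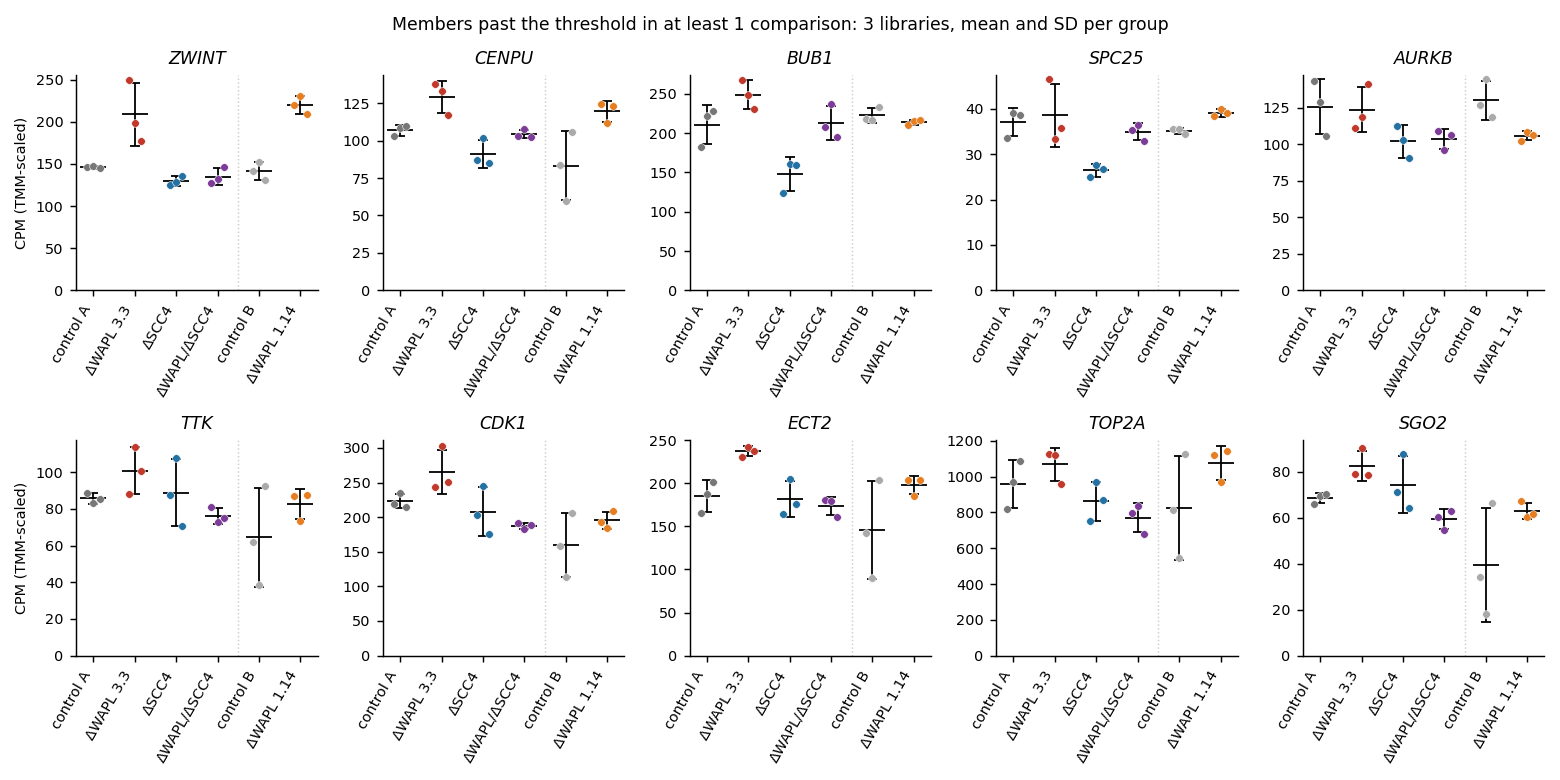
CPM of the 10 members that passed the threshold in at least 1 comparison, with the 3 libraries of each group as points and mean ± SD as bars; the dotted line parts set A from set B. In ZWINT and CENPU all 6 ΔWAPL libraries lie above all 6 controls, and in ΔWAPL/ΔSCC4 ZWINT reads 127 to 146 CPM.

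SCC4 loss was compared with control A. BUB1 and SPC25 fell, and no member rose, 2 of 53 against 9.49% of all genes in either direction and 504 of 12503 as lower. BUB1, the checkpoint kinase that marks centromeres for shugoshin, read 182, 222.5 and 228 CPM in control A and 124, 161 and 159.7 CPM in ΔSCC4. SPC25, a subunit of the NDC80 complex, read 33.7, 39.0 and 38.6 CPM in control A and 25.0, 27.7 and 26.7 CPM in ΔSCC4. Neither overlapped between the groups. BUB1 fell by 0.52 on the log2 scale (SE 0.15, 95% interval −0.85 to −0.20, edgeR adjusted p = 0.0482) and SPC25 by 0.50 (SE 0.13, 95% interval −0.80 to −0.21, edgeR adjusted p = 0.0398). Neither passed without control A replicate 2, without control A replicate 3, without ΔSCC4 replicate 1 or without ΔSCC4 replicate 2, and SPC25 also not without ΔSCC4 replicate 3. The estimate was below 0 for 45 of the 53 members, with a median of −0.175 against −0.005 over all genes. With the GC offset 8 members passed, 6 lower and 2 higher, or 15.1% against 20.3% of all genes. Without control A replicate 1 there were also 8, 7 lower and 1 higher, against 18.3% of all genes. The largest estimate was that of DSN1 of the MIS12 complex, −0.83 (edgeR adjusted p = 0.0572), which read 23.7, 43.0 and 42.5 CPM in control A and 17.0, 19.2 and 25.8 CPM in ΔSCC4.

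Same-numbered control A and ΔSCC4 libraries deviated together (correlations 0.68, 0.12 and 0.615), so the replicate number was also entered as a block. The block was thus chosen from these same values, by a rule given with the processing. Control B with clone 1.14 missed that rule at 0.0495, 0.32 and 0.20. The replicate 1 libraries of control A and ΔSCC4 also shared a GC gradient (rho 0.53 and 0.54). Such a block takes up spread that the paired libraries share, so the counts below depend on this choice. With the block 33 members passed, 30 lower and 3 higher, or 62.3% of the members against 46.0% of all genes, and 56.6% against 23.7% for lower alone. By role, the members that passed were 5 of 6 checkpoint genes (4 lower), 3 of 6 kinase and passenger genes, 4 of 5 mitotic entry genes, 2 of 4 anaphase genes (1 lower), 4 of 9 inner kinetochore genes, 6 of 9 outer kinetochore genes (5 lower), 4 of 7 attachment genes and 5 of 6 spindle and midzone genes. Where no direction is given, all that passed were lower. SGO2 did not pass. The largest falls were those of DSN1 (−0.80), BUB1 (−0.53), SPC25 (−0.50), BUB1B (−0.46) and MIS18A (−0.43), the last a licensing factor for new CENPA. The 3 that rose were FZR1, the co-activator of the anaphase-promoting complex after mitosis (0.42), MAD1L1 (0.25) and NDC80 (0.17, SE 0.052). In the same fit with a GC offset 26 members passed, 24 lower and 2 higher (FZR1 and NDC80), or 49.1% of the members against 45.7% of all genes.

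SCC4 loss in cells that already lacked WAPL was examined by setting ΔWAPL/ΔSCC4 against clone 3.3. There 6 members fell while none rose, 11.3% of the members against 10.6% of all genes in either direction and 4.55% of all genes as lower. The median log2 fold change was −0.15 over the members and −0.011 over all genes tested, and 45 of 53 estimates were below 0. The 6 were ZWINT, CDK1, SGO2, TOP2A, the cytokinesis exchange factor ECT2 and TTK. Of these, ZWINT, CDK1, ECT2 and TOP2A held TTTGAA in the stretches printed above and so in the full windows. SGO2 held it in neither, and TTK had no entry. Over the full windows TTTGAA was present in 27 of 46 member promoters (58.7%). These include SPC25, which did not pass in this comparison and whose matches lie outside the printed stretch. Whether TTTGAA was related to the falls was not tested.

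ZWINT read 127, 132 and 146 CPM in ΔWAPL/ΔSCC4, against 177.5 to 249.8 CPM in clone 3.3 and 145 to 148 CPM in control A. It fell by 0.63 on the log2 scale (SE 0.13, 95% interval −0.90 to −0.35, edgeR adjusted p = 0.00415) and passed in all 15 alternative fits of this comparison. Against control A it did not pass, with an estimate of −0.12 and an interval from −0.36 to 0.13. CDK1, the kinase that starts mitosis, read 191.5, 183 and 188 CPM in ΔWAPL/ΔSCC4 and 244, 302 and 251 CPM in clone 3.3, with 215 to 235 CPM in control A. It fell by 0.50 (SE 0.11, edgeR adjusted p = 0.0074) and lost the threshold only without clone 3.3 replicate 2, the library highest in CDK1.

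TOP2A read 798, 838 and 678 CPM in ΔWAPL/ΔSCC4 and 1124, 1120.0 and 959 CPM in clone 3.3, a fall by 0.47 (SE 0.11, edgeR adjusted p = 0.012). ECT2 read 180.5, 179 and 161 CPM against 231, 242 and 237 CPM, a fall by 0.45 (SE 0.10, edgeR adjusted p = 0.0101). Both groups were free of overlap for both genes. SGO2 read 60.2, 54.6 and 63.1 CPM against 78.9, 90.1 and 78.4 CPM, a fall by 0.47 (SE 0.12, edgeR adjusted p = 0.0157). TTK, the kinase at the top of the checkpoint, read 81.0, 72.7 and 75.0 CPM against 88.0, 113.8 and 101 CPM, a fall by 0.40 (SE 0.12, edgeR adjusted p = 0.0479). Clone 3.3 replicate 2 weighed on this list: without it only ZWINT passed, against 6.79% of all genes, and without clone 3.3 replicate 1 there were 11 calls, 8 lower and 3 higher, or 20.8% of the members against 12% of all genes. Other libraries moved the count less, to 3 without ΔWAPL/ΔSCC4 replicate 3 (7.28% of all genes) and 9 without clone 3.3 replicate 3 (14.2% of all genes). With the GC offset 11 members passed, all lower, or 20.8% against 19.7% of all genes in either direction. ZWINT, CDK1, ECT2 and TOP2A were among them and SGO2 and TTK were not. Of the 15 alternative fits, TTK lost the threshold in 9, SGO2 in 5 and ECT2 and TOP2A in 3 each.

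Against control A, ΔWAPL/ΔSCC4 showed no member past the threshold in edgeR, where 7.95% of all genes passed. An unadjusted p under 0.05 was found for 4 members, all lower, and DESeq2 called none. Without control A replicate 1, TOP2A passed as lower. The median was −0.11, 39 of 53 estimates were below 0, and the 95% interval lay within 1.5-fold for 45 members. The lowest estimates were those of CDC25C (−0.34), the phosphatase that activates CDK1, BIRC5 (−0.33) and TOP2A (−0.31). The comparisons with control A and with clone 3.3 share the ΔWAPL/ΔSCC4 libraries, and those of ΔSCC4, clone 3.3 and ΔWAPL/ΔSCC4 share the controls. For BUB1 the estimates against control A were 0.22 in clone 3.3, −0.52 in ΔSCC4 and 0.016 in ΔWAPL/ΔSCC4. For SPC25 they were 0.040, −0.50 and −0.089.

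**Figure D5:**
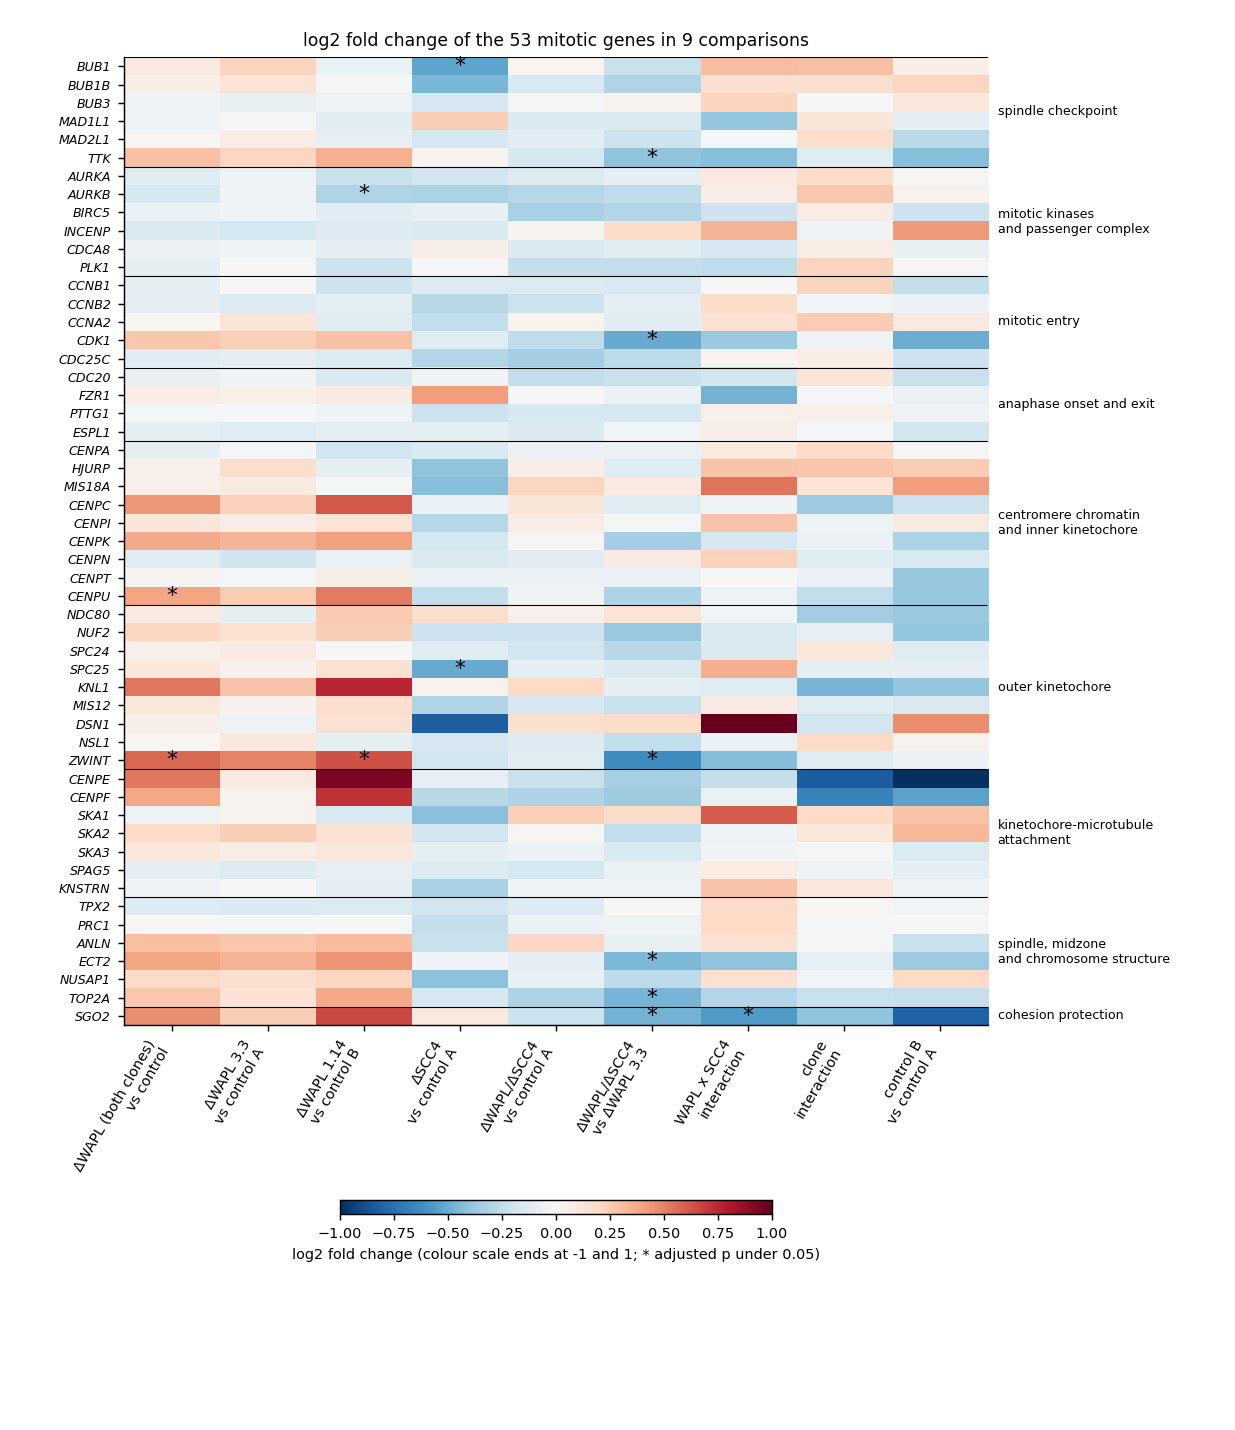
Log2 fold changes of the 53 members, ordered by role, in 9 comparisons (colour, ending at −1 and 1), with an asterisk where the adjusted p was under 0.05. The ΔSCC4 column is blue for 45 of 53 members but carries 2 asterisks, and the 6 asterisks of ΔWAPL/ΔSCC4 against ΔWAPL 3.3 include ZWINT, which is red in the ΔWAPL columns.

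Whether SCC4 loss acted alike with and without WAPL was tested as an interaction in set A. Over all genes 11.3% passed, and of the members 1 did, SGO2, at −0.57 (SE 0.17, 95% interval −0.93 to −0.20, edgeR adjusted p = 0.0452). SGO2 read 65.9, 69.4 and 70.4 CPM in control A and 71.1, 87.9 and 64.1 CPM in ΔSCC4, which overlapped. In clone 3.3 and in ΔWAPL/ΔSCC4 it read as given above, without overlap. The call was close to the threshold: it was lost in 17 of 21 alternative fits, 11 of them fits without 1 library, while the estimate stayed between −0.66 and −0.44. With the GC offset 5 members passed against 24.8% of all genes, 4 lower (FZR1, ZWINT, ECT2 and TOP2A) and 1 higher (BUB1). The interaction was 1.03 for DSN1 (edgeR adjusted p = 0.15) and −0.43 for ZWINT (edgeR adjusted p = 0.113), neither past the threshold.

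Other genes of the same processes were counted beside the members. Of 71 other mitotic genes, 4 passed over both clones, 5.63% against 17.7% of all genes: CKAP2, a spindle protein (0.49), and FBXO5, an inhibitor of the anaphase-promoting complex (0.38), rose, and HASPIN, the kinase that marks histone H3 at centromeres (−0.23), and the kinesin KIF20A (−0.21) fell. None of the 71 passed in clone 3.3 or in ΔWAPL/ΔSCC4 against control A, where 8.07% and 7.95% of all genes did. An unadjusted p under 0.05 was found for 5 and 11 of them. In clone 1.14 5 of the 70 tested fell and none rose, 7.14% against 20.1% of all genes in either direction and 1437 of 12636 as lower. In ΔSCC4 none passed in edgeR either, where 9.49% of all genes did, and 10 had an unadjusted p under 0.05. With the replicate block 27 fell and 1 rose, 39.4% against 46.0% of all genes in either direction and 23.7% as lower. In ΔWAPL/ΔSCC4 against clone 3.3 5 fell and none rose, 7.04% against 10.6% of all genes in either direction and 4.55% as lower. Of 36 S-phase genes, 2 passed over both clones, 5.56% against 17.7% of all genes: CCNE2 (cyclin E2, 0.52) and MCM6 of the replicative helicase (−0.30). In ΔSCC4 5 of the 36 fell and none rose, 13.9% against 9.49% of all genes in either direction and 504 of 12503 as lower. With the replicate block 29 of the 36 fell and none rose, 80.6% against 46.0% in either direction and 23.7% as lower. The median of the S-phase genes in ΔSCC4 was −0.33, against medians without the block of −0.175 for the members and −0.13 for the other mitotic genes. In ΔWAPL/ΔSCC4 against clone 3.3 none of the S-phase genes passed in edgeR, where 10.6% of all genes did. Of the S-phase genes 2 had an unadjusted p under 0.05, and their median was −0.034.

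Some members share a chromosome, with 6 each on chromosomes 15 and 17 and 5 each on chromosomes 1, 2 and 4. On chromosome 15, CCNB2 (chr15:59397325-59417244) and PRC1 (chr15:91509270-91538859) lie apart from the other members. BUB1B (chr15:40453224-40513324), KNSTRN (chr15:40674922-40686489), KNL1 (chr15:40886218-40956540) and NUSAP1 (chr15:41612992-41673248) lie in this order in GRCh37, with gaps between them. In ΔSCC4 their estimates were −0.46, −0.33, 0.035 and −0.41. None of these passed in the edgeR fit of control A and ΔSCC4 with neither block nor offset. BUB1B passed with the GC offset, BUB1B and KNSTRN in 1 fit over all samples, and BUB1B and NUSAP1 without control A replicate 1. With the block BUB1B, KNSTRN and NUSAP1 fell and KNL1 (0.036) did not pass. Over both ΔWAPL clones the 4 estimates were 0.068, −0.035, 0.53 and 0.20, and none passed.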

How the data were processed

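Polyadenylated RNA was sequenced from stranded libraries. The authors aligned reads to hg19 with TopHat (TopHat2 2.0.9 in the submitters' processing notes), counted them with HTSeq and deposited the raw gene counts. The annotation release is not given in the sources used here, and between 20.3% and 22.6% of the deposited counts named no single gene and were left out: 14.3% to 16.1% were non-unique alignments, 4.04% to 5.22% matched no gene and 1.47% to 1.73% were ambiguous between genes. The labels give the groups and the control sets A and B, but not which knockouts belong with which set. Run and lane numbers in the names of the deposited data put clone 1.14 with set B and the other knockouts with set A. Each clone was also tested against all 6 controls, while ΔSCC4 and ΔWAPL/ΔSCC4 were not.

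Counts of all genes were filtered with filterByExpr, scaled by TMM and tested by quasi-likelihood in edgeR 4.0.16 under R 4.3.3, with Benjamini-Hochberg adjustment over all genes tested at 0.05. Standard errors were obtained by dividing the size of each log2 fold change by the root of its F statistic. DESeq2 1.42.0 was an alternative, as were other size factors and filters, a robust spread, 1 fit over all samples, a GC offset (lowess, span 0.3), the replicate block and leaving out each library. Fits were tested on simulated counts. Exon length, GC and positions came from GENCODE on GRCh37, which held 96.6% of the genes. No 2 libraries held the same counts, and replicates differed beyond sampling noise. Named in full are members past the threshold, the 3 highest and 3 lowest per kilobase, and WAPL, MAU2 and NIPBL. Of each other list at most 2 rises and 2 falls over both clones are named. Members and lists were chosen with earlier results of these data known.

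Same-numbered libraries were paired where their deviations from group means correlated above 0.1 for every number, which held only for control A with ΔSCC4 (0.68, 0.12 and 0.615; mean 0.47 against −0.23 for unlike numbers).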

Additional observations from a re-analysis of the deposited data

Results flagged for a closer look

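For SGO2 the WAPL by SCC4 interaction passed the threshold, at −0.57 on the log2 scale (edgeR quasi-likelihood test, adjusted p = 0.0452). It was 1 of 53 members, where 11.3% of all genes passed. The call was lost in 17 of 21 alternative fits, so it depended on the fit. Its adjusted p ranged from 0.0216 to 0.338 over the alternatives. In the 4 groups compared, the coefficient of variation of SGO2 was 3.42% in control A, 7.998% in clone 3.3, 16.4% in ΔSCC4 and 7.22% in ΔWAPL/ΔSCC4. Groups held 3 libraries, too few for a test of single outlying libraries.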

How the results depend on the processing

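The number of members past the threshold depended on the fit, and so did that of all genes. Brackets give the share of all genes past the threshold in the same fit. Over both clones it was 2 (17.7%), and 4 with DESeq2 (15.3%), with 1 fit over all samples (21.2%) and with the replicate block (12%). It was 1 with clone 1.14 (15.8%) or clone 3.3 (10.9%) against all 6 controls. In clone 3.3 it was 0 (8.07%). It was 1 (ZWINT) with DESeq2 (6.17%), its size factors (7.85%), no filter (7.57%) and a robust spread (8.14%). It was also 1 (ZWINT) with the GC offset (12.8%), the block with the GC offset (7.33%) and 1 fit over all samples (13.5%). In clone 1.14 it was 2 (20.1%), and 12 with the GC offset (28.1%), 6 with the block (24%) and 16 with both (34.3%). The shares of the members in these fits were 3.77%, 22.6%, 11.3% and 30.2%, each below that of all genes. For ΔSCC4 the number of members was 2 (9.49%), and 8 with the GC offset (20.3%) and 9 in 1 fit over all samples (19.7%). It was 1 with at least 10 counts in every sample (7.2%), 33 with the block (46.0%) and 26 with block and offset (45.7%). For ΔWAPL/ΔSCC4 it was 0 against control A (7.95%), and 3 with the offset (13.9%) and 1 in 1 fit over all samples (11.4%). Against clone 3.3 it was 6 (10.6%), and 11 with the offset (19.7%), 11 with block and offset (18.3%) and 2 in 1 fit over all samples (11.5%). For the WAPL by SCC4 interaction it was 1 (11.3%), and 5 with the offset (24.8%) and 2 with block and offset (22.3%). It was 0 with the block (10.0%), with no filter (8.99%) and with at least 10 counts (8.9%). Between the control sets 1 fit over all samples gave 1 (3.14%) in place of 0 (0.64%). Leaving out 1 library gave 1 to 10 over both clones (14.3% to 22.2%), 0 to 1 in clone 3.3 (5.44% to 9.35%) and 1 to 25 in clone 1.14 (11.1% to 37.9%). It gave 0 to 8 for ΔSCC4 (5.25% to 18.3%). For ΔWAPL/ΔSCC4 it gave 0 to 1 against control A (4.62% to 12.2%) and 1 to 11 against clone 3.3 (6.79% to 14.2%). It gave 0 to 1 for the clone interaction (1.69% to 2.88%) and 0 to 2 for the WAPL by SCC4 interaction (8.6% to 13.5%). Between the control sets it gave 0 to 2 (0% to 0.85%). None of the 13 calls changed direction in any alternative. The cause of these shifts was not tested. Outside ΔSCC4 the replicate numbers did not meet the rule for pairing libraries, and between the control sets no block could be fitted.

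With 3 libraries a group the median standard error of a member was 0.083 over both clones and between 0.076 and 0.18 in the other comparisons without the block, which limits the differences that could be detected. The coefficient of variation of a member reached 93.2% in control B and 11.3% in clone 1.14, with group medians of 8.07% and 4.11%.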
